A study of Rattus norvegicus with 86 samples.

Results

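A set of 5 genes used to mark microglia was followed across rats in RNA-Seq data from the nucleus accumbens core. They were chosen by Ensembl identifier: Csf1r (ENSRNOG00000018414), C1qa (ENSRNOG00000012807), Aif1 (ENSRNOG00000000853), Itgam (ENSRNOG00000019728) and Tyrobp (ENSRNOG00000020845). All 5 were present among the 17180 genes of the deposited table. The animals were Heterogeneous Stock (HS) rats, an outbred population, group housed and without any behavioural or drug treatment, and every group below shares that state. The table held 75 libraries of polyA RNA, 1 per rat, from bilateral tissue dissected out of frozen brain sections of 38 females and 37 males. The labels place the rats in numbered batches without saying what a batch stands for. There were 12 libraries from rat batch 2 (2 females, 10 males), 20 from batch 3 (13 and 7), 26 from batch 4 (14 and 12), 1 female from batch 5 and 16 libraries from batch 6 (8 and 8). Rats are named by a number within the batch that follows the order of the sample records.

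Microglia are the resident macrophages of the brain parenchyma. They arise from yolk sac precursors, survive only while their colony stimulating factor receptor is engaged, survey the tissue with motile processes, engulf debris and are the main source of C1q in the brain. In the striatum, as elsewhere in the brain, they make up a minor share of all cells, so bulk tissue RNA reports them as a small part of a pool dominated by neurons, astrocytes and oligodendrocytes. The genes fall into 3 roles. Csf1r encodes the receptor for CSF1 and IL-34 on which survival depends. Itgam (CD11b, the alpha chain of complement receptor 3) and Tyrobp (DAP12, the signalling adaptor of TREM2 and related receptors) act at the surface. C1qa is a chain of the complement recognition molecule C1q, and Aif1 (IBA1) is a calcium-binding protein of the actin cytoskeleton whose antibody is the usual histological stain for these cells. Border macrophages and blood-borne myeloid cells express most of these genes too. Only the 5 symbols named in the selection were used, so markers of other cell types were not analysed here and the tissue label was not checked beyond these genes.

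Depth allowed all 5 genes to be measured in every library. The recovered total count per library ran from 8455342 to 26145738, and the lowest recovered count of any member in any library was 43, for Itgam. Values are log2(scaled count + 1), where the scaled count is the authors' estimated read count after upper-quartile adjustment. Levels were not ranked between genes, since no transcript lengths were used. The library with the lowest total, rat 10 of rat batch 2 (a male), had 1318 genes at 0. Counts of genes that it moves by over 1.5 times are given with and without it. Columns of the table fall into 3 runs, within which the sample names are sorted. All of rat batch 2 lay in run 1 and all of rat batches 4, 5 and 6 in run 3, while rat batch 3 had 7 libraries in run 1, 12 in run 2 and 1 in run 3. What the runs stand for is not given in the sources used here.

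The start regions of Csf1r, C1qa and Itgam are shown, the members for which a promoter was at hand. RefSeq promoters on build GRCr8 run from 250 bases before to 50 bases after the start site, and 3 of the 5 genes had an entry: Csf1r at chr18:56834129-56834428 on the plus strand, C1qa at chr5:154419884-154420183 on the minus strand and Itgam at chr1:192089342-192089641 on the plus strand. Sequences are 5′ to 3′ on the gene's strand, and capitals mark matches to GGAAGT, a core bound by PU.1 and other ETS factors.
Csf1r: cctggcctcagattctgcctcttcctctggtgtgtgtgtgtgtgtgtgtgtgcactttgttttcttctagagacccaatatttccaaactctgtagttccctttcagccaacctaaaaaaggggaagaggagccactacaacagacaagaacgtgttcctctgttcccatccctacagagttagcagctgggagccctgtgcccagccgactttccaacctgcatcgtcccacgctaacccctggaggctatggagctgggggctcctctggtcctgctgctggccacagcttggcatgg
C1qa: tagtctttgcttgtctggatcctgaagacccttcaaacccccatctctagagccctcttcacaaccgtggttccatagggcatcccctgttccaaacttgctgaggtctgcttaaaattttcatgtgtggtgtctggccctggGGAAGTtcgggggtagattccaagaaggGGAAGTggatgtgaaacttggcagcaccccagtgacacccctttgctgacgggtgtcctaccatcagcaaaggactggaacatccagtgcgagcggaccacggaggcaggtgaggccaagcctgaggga
Itgam: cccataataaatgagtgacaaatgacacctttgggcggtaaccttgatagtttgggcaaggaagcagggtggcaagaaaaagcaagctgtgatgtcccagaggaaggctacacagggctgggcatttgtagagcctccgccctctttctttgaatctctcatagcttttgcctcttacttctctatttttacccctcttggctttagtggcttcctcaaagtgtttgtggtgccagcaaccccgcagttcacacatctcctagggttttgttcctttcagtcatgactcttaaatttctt
C1qa held GGAAGT at 2 positions, 107 and 79 bases before the start site. Csf1r and Itgam held none. On both strands, 22.6% of the 33469 RefSeq promoters of this length held at least 1 match and 3.72% held 2 or more. None of these 3 windows held the AP-1 site (TGACTCA or TGAGTCA, in 4.63% of promoters) or TATAAA (in 14.2%). These are matches of letters only.

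Csf1r was the least variable member. Over the 75 libraries its level ran from 10.16 in rat 13 of rat batch 6 (a male) through a median of 10.52 to 10.98 in rat 3 of rat batch 3 (a male), which is 1143, 1465 and 2014 scaled counts. The lowest, median and highest values were 10.42, 10.60 and 10.73 (batch 2), 10.42, 10.65 and 10.98 (batch 3), 10.20, 10.48 and 10.78 (batch 4), and 10.16, 10.44 and 10.62 (batch 6). The batches overlapped, but all 16 rats of rat batch 6 and 25 of the 26 of rat batch 4 lay below the median of rat batch 3, and 12 of the 20 rats of rat batch 3 lay above the highest rat of rat batch 6.

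C1qa ran from 9.35 in rat 15 of rat batch 4 (a male) through 9.92 to 10.55 in rat 16 of rat batch 2 (a female). By batch the lowest, median and highest values were 9.66, 9.94 and 10.55 (batch 2), 9.68, 10.18 and 10.41 (batch 3), 9.35, 9.93 and 10.26 (batch 4), and 9.52, 9.72 and 10.14 (batch 6). Again all 16 rats of rat batch 6 lay below the median of rat batch 3, as did 23 of 26 rats of rat batch 4, with ranges that overlapped.

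Aif1 ran from 7.13 in rat 1 of rat batch 6 through 7.74 to 8.56 in rat 10 of rat batch 2, both males. The highest value therefore came from the library with the lowest total, where it rested on 172 recovered counts. Its lowest, median and highest values were 7.53, 7.80 and 8.56 (batch 2), 7.55, 7.87 and 8.53 (batch 3), 7.23, 7.67 and 8.21 (batch 4), and 7.13, 7.64 and 7.93 (batch 6). Of the 26 rats of rat batch 4, 21 lay below the median of rat batch 3, as did 12 of the 16 rats of rat batch 6.

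Itgam had the widest range. It ran from 6.29 in rat 14 of rat batch 6 (a male) through 7.66 to 8.27 in rat 18 of rat batch 3 (a female), or 77, 201 and 307 scaled counts. By batch the lowest, median and highest were 7.26, 7.72 and 8.09 (batch 2), 6.69, 7.65 and 8.27 (batch 3), 6.32, 7.68 and 8.23 (batch 4), and 6.29, 7.67 and 8.01 (batch 6). The batch medians lay close together, and 8 of the 16 rats of rat batch 6 were below the median of rat batch 3.

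The low end of Itgam was made of single rats. Rat 14 of rat batch 6 had 43 recovered counts in a library of 10372185, while its Csf1r was 10.50 and its C1qa 9.57, inside the range of the batch. Rat 22 of rat batch 4 (a female) had Itgam at 6.32 on 65 counts and Tyrobp at 7.75, close to the batch's highest Tyrobp value of 7.77. Rat 1 of rat batch 3 (a male) had 6.69 on 87 counts and lay below its fitted mean in all 5 genes. The deviations of these 3 rats from the fitted mean of their batch and sex were -1.12, -1.36 and -0.91 on the log2 scale.

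Tyrobp ran from 6.61 in rat 5 of rat batch 3 (a female) through 7.29 to 7.98 in rat 23 of the same batch (a male). Its lowest, median and highest values were 6.81, 7.18 and 7.67 (batch 2), 6.61, 7.48 and 7.98 (batch 3), 6.70, 7.29 and 7.77 (batch 4), and 6.77, 7.16 and 7.78 (batch 6). Rat batch 3 was thus widest and had both extremes, and 11 of the 12 rats of rat batch 2, 22 of 26 of rat batch 4 and 15 of 16 of rat batch 6 lay below its median. The single rat of rat batch 5 had 10.71 for Csf1r, 9.86 for C1qa, 7.34 for Aif1, 7.49 for Itgam and 7.07 for Tyrobp, and entered no test.

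**Figure D1:**
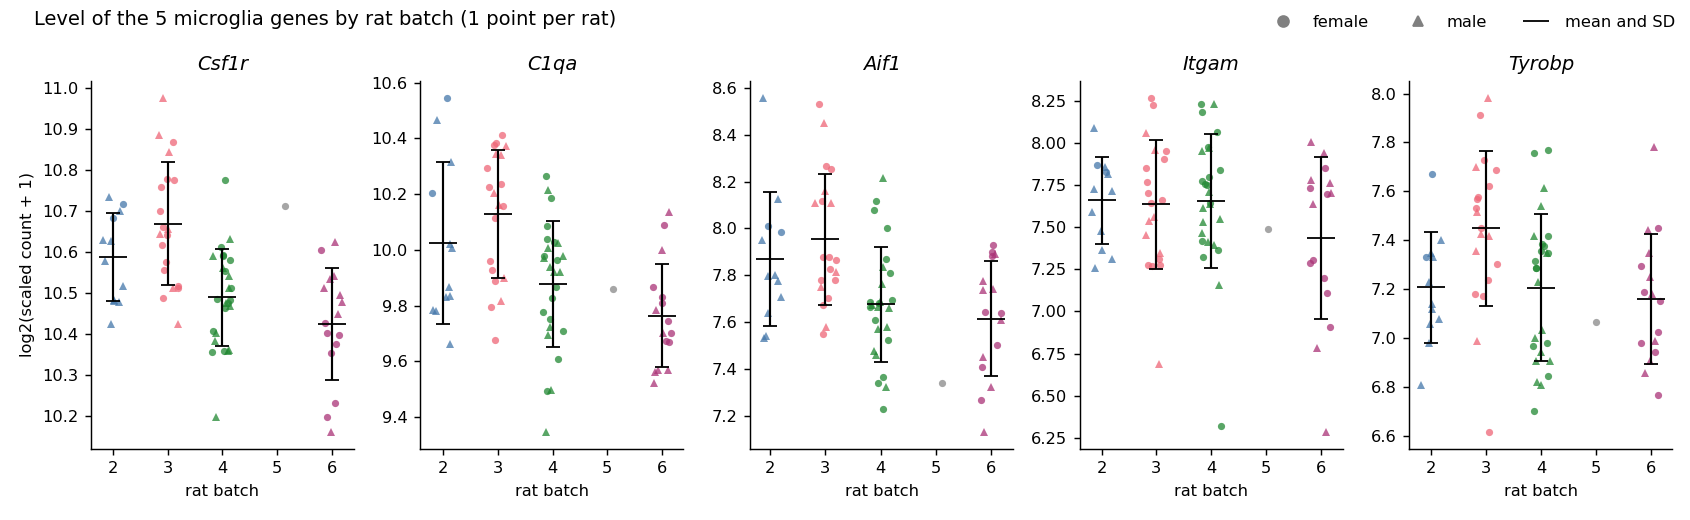
Level of each gene, log2(scaled count + 1), in each of the 75 rats by rat batch. Circles are females, triangles males, and bars show mean and SD. Csf1r and C1qa sit lower in rat batches 4 and 6 than in rat batch 3, and the 3 lowest Itgam values (6.29, 6.32 and 6.69) stand below the rest of their batches.

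Spread between rats was taken as the SD left after rat batch and sex had been fitted in 74 libraries. With 1 library per rat, it can also hold differences of dissection, library preparation and column run, none of which was fitted. It was 0.13 for Csf1r, 0.23 for C1qa, 0.26 for Aif1, 0.40 for Itgam and 0.29 for Tyrobp on the log2 scale, against a median of 0.20 over the 12988 genes with a mean log2 of at least 5. Because spread falls with level, each gene was also set beside genes within 0.5 log2 of its own mean. Itgam was wider than 90.7% of 1934 such genes and C1qa than 87.4% of 2353. Aif1 (66.5% of 2012), Tyrobp (62.5% of 1745) and Csf1r (40.7% of 1912) were nearer the middle. Poisson counting alone would give SDs between 0.04 for Csf1r and 0.12 for Tyrobp, which is between 4.31% of the variance (C1qa) and 17.9% (Tyrobp), so most of the spread of each gene was not counting error.

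**Figure D2:**
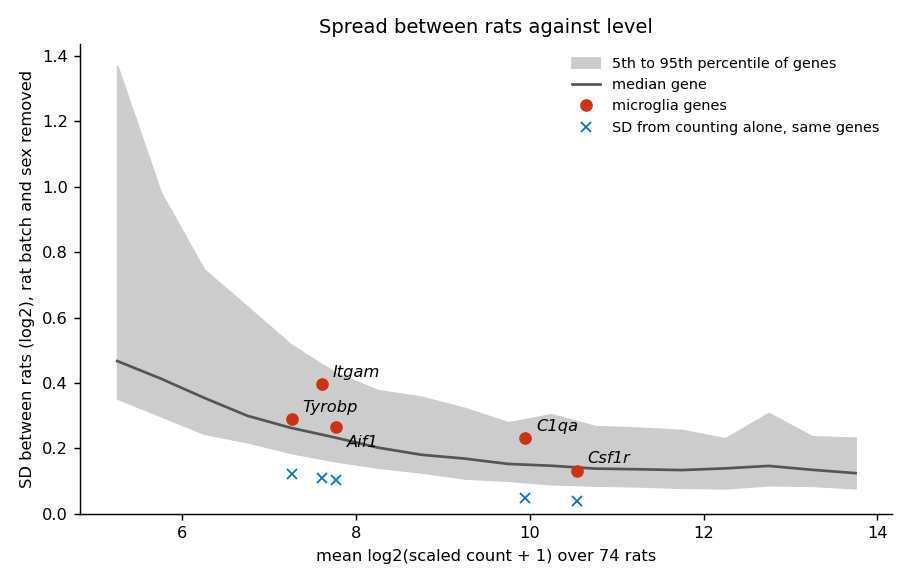
SD between rats against mean level, both on the log2 scale, for the 5 genes (red) beside the median (line) and the 5th to 95th percentile (grey) of genes in bins of mean level. Blue crosses give the SD expected from counting alone. Itgam (0.40) and C1qa (0.23) lie well above the median gene of their level, and Csf1r (0.13) lies close to it.

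The first comparison asked whether the members shift between rat batches. Csf1r, C1qa, Aif1 and Tyrobp did and Itgam did not pass the test. The limma moderated F test with sex as covariate gave adjusted p-values of 8.42e-06 for Csf1r, 0.00016 for C1qa, 0.00138 for Aif1, 0.0337 for Tyrobp and 0.349 for Itgam. The Tyrobp call was lost with voom (adjusted p = 0.194), with the log2 total count as covariate (0.0541) and without rat batch 6 (0.0642) or 3 (0.837), and the Aif1 call without rat batch 3 (0.067). That is 4 of 5 genes, where 53.5% of all 17180 genes were called, so a call here is what most genes show. Once sex was removed, the share of variance that lay between rat batches was 35.0% in Csf1r, 27.4% in C1qa, 22.6% in Aif1, 13.5% in Tyrobp and 5.16% in Itgam, beside a median of 13.6% over all genes. In bulk tissue, fewer microglia, less RNA per microglial cell and a change in other cells that express these genes cannot be told apart. None of these was tested.

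Rat batches 4 and 6 were lower than rat batch 3. Csf1r, the survival receptor, was lower by 0.18 ± 0.04 (SE) in rat batch 4 and by 0.25 ± 0.04 in rat batch 6, with limma adjusted p-values of 0.000135 and 5.06e-06. C1qa was lower by 0.24 ± 0.07 and 0.36 ± 0.08 (adjusted p = 0.00232 and 9.06e-05), the second being a change of -21.9%. Aif1 was lower by 0.27 ± 0.08 and 0.34 ± 0.09 (adjusted p = 0.0032 and 0.00133). Tyrobp was lower by 0.24 ± 0.09 and 0.28 ± 0.10 (adjusted p = 0.021 and 0.0141). For Itgam the differences were 0.03 ± 0.12 and -0.19 ± 0.13, with adjusted p-values of 0.871 and 0.247. Over all genes, 20.3% were called lower in rat batch 4 than in rat batch 3 and 22.3% lower in rat batch 6. The median member difference was -0.24 and -0.28, and the median size of the difference over all genes, in either direction, was 0.16 and 0.19.

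Against rat batch 2, only rat batch 6 gave calls. There Csf1r was lower by 0.16 ± 0.05 (SE, limma adjusted p = 0.00984), C1qa by 0.28 ± 0.09 (0.00898) and Aif1 by 0.26 ± 0.10 (0.0383), where 17.9% of genes were called lower. Itgam, at -0.24 ± 0.15, and Tyrobp, at -0.06 ± 0.11, were not called. Rat batch 4 had no member called against rat batch 2 (13.2% of genes called lower), although all 5 differences were below 0. Fitted with these batches alone, the Csf1r difference between rat batches 4 and 2 was -0.13 with an adjusted p of 0.0257. No member was called between rat batches 3 and 2 (1.96% of genes lower in rat batch 3) or between rat batches 6 and 4 (1.4% lower in rat batch 6). The highest member difference between rat batches 3 and 2 was that of Tyrobp, 0.22 ± 0.11, with an unadjusted limma p of 0.0505.

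**Figure D3:**
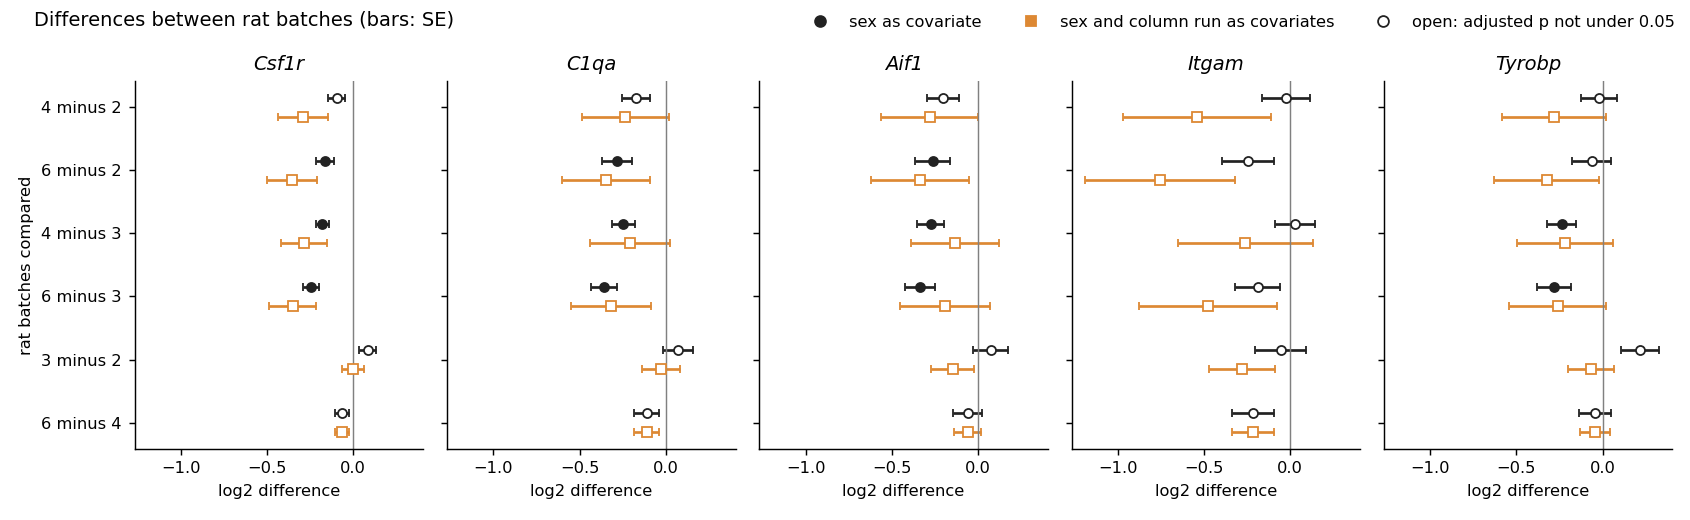
Log2 difference between each pair of rat batches for each gene, with SE bars. Black circles have sex as covariate and orange squares have sex and column run; filled symbols have an adjusted p under 0.05. The filled circles are all below 0 and compare rat batch 4 or 6 with rat batch 3, or rat batch 6 with rat batch 2, and no square is filled.

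The shifts overlapped with the column runs. With run as a further covariate no member was called in the F test, limma adjusted p-values lay between 0.36 for Csf1r and 0.929 for Tyrobp, and 0.984% of genes were called. Only Csf1r had an unadjusted p under 0.05 there (0.0493). The difference between rat batches 6 and 3 was then -0.35 ± 0.13 (SE) instead of -0.25 ± 0.04 for Csf1r, -0.32 ± 0.23 instead of -0.36 ± 0.08 for C1qa, -0.19 ± 0.26 instead of -0.34 ± 0.09 for Aif1 and -0.26 ± 0.28 instead of -0.28 ± 0.10 for Tyrobp. For Itgam it was -0.48 ± 0.40 instead of -0.19 ± 0.13. Rat batch 4 minus 3 went from -0.18 to -0.29 for Csf1r, from -0.27 to -0.13 for Aif1 and from 0.03 to -0.26 for Itgam. Against rat batch 2, Csf1r went from -0.10 to -0.29 in rat batch 4 and from -0.16 to -0.36 in rat batch 6. In the same 2 comparisons Itgam went from -0.03 to -0.54 and from -0.24 to -0.76. Tyrobp went from -0.02 to -0.28 and from -0.06 to -0.33. With 20 expression components as covariates, again no member and 0.0698% of genes were called, and 1 member had an unadjusted limma p under 0.05 (Itgam, 0.0215). Run and batch are separated only by the 20 libraries of rat batch 3, so their parts in the shifts between batches cannot be told apart.

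Within rat batch 3, the 12 libraries of run 2 had higher Tyrobp than the 7 of run 1. Tyrobp ran from 6.61 through a median of 7.18 to 7.69 in run 1 and from 7.30 through 7.57 to 7.98 in run 2, a difference of 0.43 ± 0.12 (SE, limma adjusted p = 0.0251, called with 5.34% of genes higher in run 2). Aif1 ran from 7.58 through 7.78 to 7.88 in run 1 and from 7.55 through 8.11 to 8.53 in run 2. Its difference of 0.34 ± 0.11 had an adjusted p of 0.0528. The ranges of both genes overlapped between the runs. The other differences were 0.35 ± 0.16 for Itgam, 0.14 ± 0.10 for C1qa and 0.12 ± 0.07 for Csf1r, and none of these was called (limma adjusted p = 0.176, 0.424 and 0.287).

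The sexes were compared next, and no member was called. The lowest, median and highest values were 10.20, 10.55 and 10.87 in females and 10.16, 10.51 and 10.98 in males for Csf1r, so the sexes covered nearly the same range. They were 9.49, 9.94 and 10.55 against 9.35, 9.92 and 10.47 for C1qa. With rat batch as covariate, the male minus female difference was 0.00 for Csf1r (95% confidence interval -0.06 to 0.07), -0.06 for C1qa (-0.17 to 0.05), -0.03 for Aif1 (-0.15 to 0.10), -0.06 for Itgam (-0.25 to 0.13) and -0.05 for Tyrobp (-0.19 to 0.09). Limma adjusted p-values lay between 0.906 and 0.997, and unadjusted ones between 0.266 and 0.938. Over all genes, 15 were called, or 0.0873%. The intervals thus leave room for a sex difference of up to 0.25 in size in Itgam and of no more than 0.07 in Csf1r.

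Within batches the sexes differed no more clearly. Csf1r gave male minus female differences of 0.06 ± 0.07 (SE, batch 3), -0.06 ± 0.05 (batch 4) and 0.10 ± 0.07 (batch 6). No member was called in any of these batches, and limma adjusted p-values were at or above 0.947. Rat batch 2, with 2 females, was not fitted on its own. The interaction of sex and rat batch, fitted on rat batches 3, 4 and 6 by a limma F test, called no member and 0% of genes, with 506 genes at an unadjusted p under 0.05. With rat batch 2 included, or with a pseudocount of 8, it called 1 gene and still no member. The lowest unadjusted p of a member was that of Csf1r in each of the 3 fits, 0.13 at first, 0.0962 with rat batch 2 included and 0.129 with the pseudocount of 8.

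Co-variation was taken across the 74 rats after rat batch and sex had been removed, so that it describes rats of the same batch. All 10 pairs of members had a positive Pearson's r, from 0.09 for C1qa with Itgam to 0.51 for Csf1r with Itgam, with a median of 0.32. Of these, 7 had an unadjusted two-sided permutation p under 0.05, and the share of all genes under that threshold is not given here. The median r over genes lay between -0.01 with C1qa and 0.01 with Itgam. In the slope tests below, the share of all genes called in either direction ran from 0.0466% on Itgam to 28.9% on Tyrobp. A single component held 45.5% of the standardised variance of the 5 genes. Of the 74 rats, 9 were above their fitted mean in all 5 genes and 5 were below it in all 5. The numbers that independent genes would give were not computed.

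The 3 highest values of r all involved Csf1r. With Itgam, the surface integrin, r was 0.51 and Spearman's rho 0.54 (permutation p = 2e-05 and 1e-05, the second being the smallest that 100000 permutations can give). Without the 2 rats farthest from the median Csf1r it was 0.48, and without the 2 farthest in Itgam it was 0.58, so it was no smaller without the lowest Itgam rats. With C1qa r was 0.48 and rho 0.44 (permutation p = 5e-05 and 0.00014), and 0.43 without the 2 farthest rats. With Tyrobp r was 0.45 and rho 0.47 (permutation p = 0.00028 and 0.00024), and 0.40 without the 2 farthest. Within rat batches 2, 3, 4 and 6 in turn, r was 0.17, 0.54, 0.56 and 0.58 with Itgam, 0.60, 0.60, 0.32 and 0.46 with C1qa, and 0.01, 0.55, 0.35 and 0.42 with Tyrobp. The positive sign thus held in each batch, and the values near 0 came from the 12 libraries of rat batch 2.

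C1qa went with Tyrobp and with Aif1. With Tyrobp r was 0.39 and rho 0.35 (permutation p = 0.00144 and 0.00303), 0.36 without the 2 farthest rats, and 0.38, 0.35, 0.28 and 0.60 in rat batches 2, 3, 4 and 6. In males alone its permutation p was no longer under 0.05 (r = 0.25, against 0.48 in females, a difference that was not tested). With Aif1 r was 0.38 and rho 0.38 (permutation p = 0.00137 and 0.00129), 0.39 without the 2 farthest, and 0.63, 0.58, 0.18 and 0.07 in the same batches. These 2 pairs and the 3 pairs of Csf1r above were the 5 that stayed positive in all 4 batches.

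The other pairs were weaker. Itgam with Tyrobp had an r of 0.26 and a rho of 0.34 (permutation p = 0.0337 and 0.00637), 0.39 without the 2 rats farthest in Itgam, and -0.40, 0.31, 0.10 and 0.62 by batch, so it did not hold in rat batch 2. Its permutation p was no longer under 0.05 with column run removed (r = 0.20), without rat batch 3 (0.26) or 6 (0.13), and in females (0.07, against 0.46 in males, a difference that was not tested). Csf1r with Aif1 had an r of 0.25 and a rho of 0.22 (permutation p = 0.0343 and 0.064), 0.19 without the 2 farthest, 0.09 without rat batch 3, and 0.52, 0.55, 0.09 and -0.19 by batch, so it did not hold in rat batch 6. It lost its permutation p under 0.05 in 8 of 12 alternatives. Aif1 with Tyrobp (r = 0.14, rho = 0.10, permutation p = 0.239 and 0.425), Aif1 with Itgam (r = 0.11, rho = 0.08, permutation p = 0.351 and 0.514) and C1qa with Itgam (r = 0.09, rho = 0.10, permutation p = 0.435 and 0.389) were not distinguishable from 0 here. Without the 2 rats farthest in the first gene of the pair these were 0.11, 0.19 and 0.08, and without the 2 farthest in the second gene 0.09, 0.03 and 0.15. Aif1 with Tyrobp without rat batch 4 (r = 0.31) and C1qa with Itgam in males (0.35) did have a permutation p under 0.05. The 2 genes with the widest spread for their level, Itgam and C1qa, thus had the lowest r of any pair over all 74 rats.

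**Figure D4:**
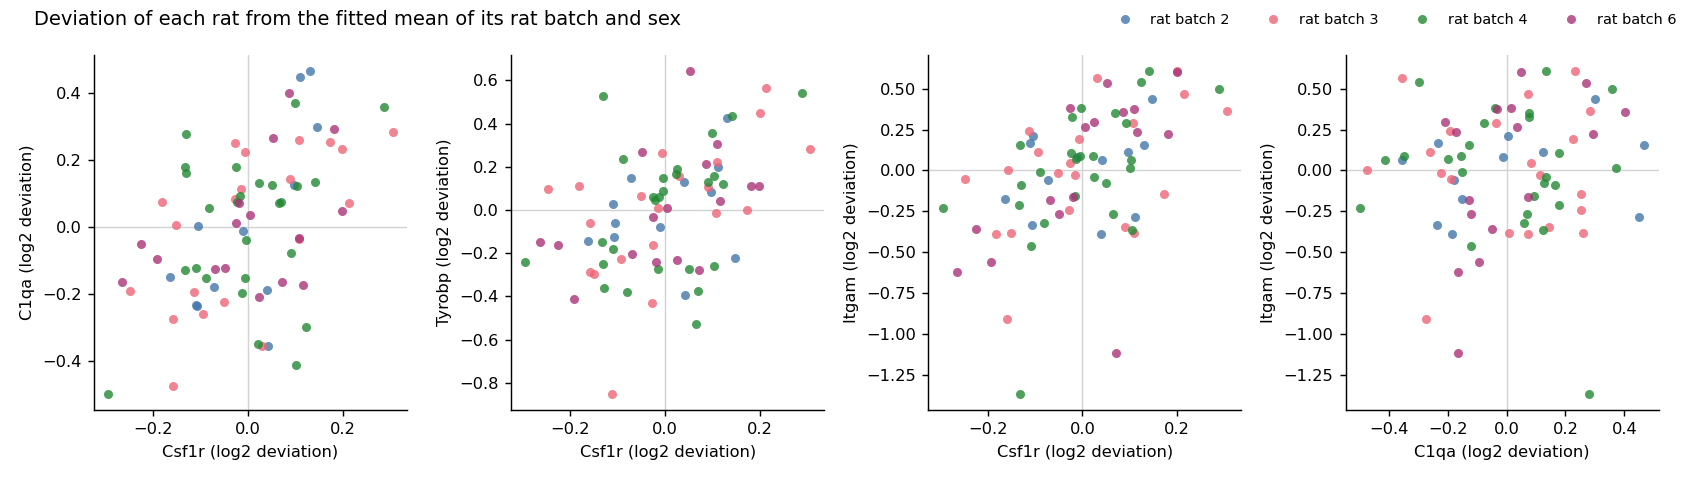
Deviation of each of 74 rats from the fitted mean of its rat batch and sex, on the log2 scale, for 4 pairs of genes and coloured by rat batch. Csf1r rises with C1qa (r = 0.48), Tyrobp (0.45) and Itgam (0.51), while C1qa and Itgam form a cloud (0.09), and the rats with the lowest Itgam lie apart at the bottom.

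The pairs were also counted by batch. In rat batch 3 all 10 pairs were positive, 6 of them above 0.5, with a median r of 0.54. Batch 2 had 8 positive pairs (median 0.29), batch 4 had 8 (median 0.20) and batch 6 had 7 (median 0.44). In rat batch 6 all 3 negative pairs involved Aif1. With column run removed inside rat batch 3, its median r was 0.36, with 9 positive pairs and 2 above 0.5. Csf1r with C1qa was then 0.56, and Aif1 with Tyrobp went from 0.56 to 0.29. The differences between batches were not tested.

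**Figure D5:**
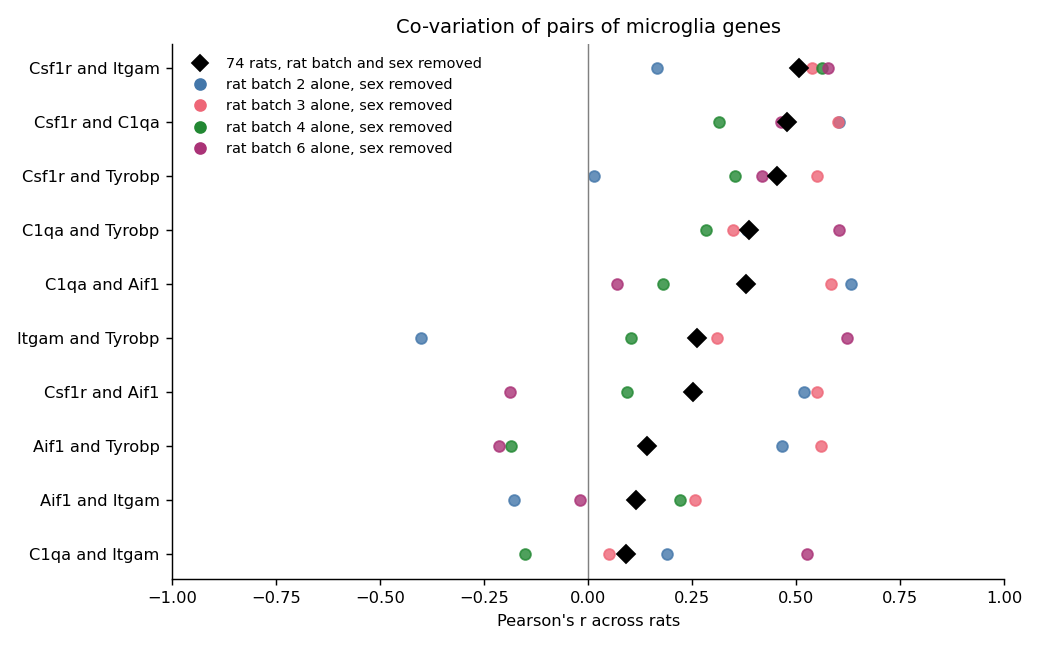
Pearson's r of each pair of genes across 74 rats after rat batch and sex were removed (black diamonds) and within each rat batch (circles). The 5 upper pairs have every circle above 0, the lower 5 have circles on both sides, and rat batch 2 gives the lowest value, -0.40 for Itgam with Tyrobp.

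To set the members beside the rest of the transcriptome, the slope of every other gene on each member was tested with limma, with rat batch and sex as covariates. Of the 20 ordered pairs of members, 9 were called, all with a positive slope. Both directions of a pair test the same association, as does its correlation above, so they are not separate evidence. On Csf1r, C1qa (adjusted p = 0.00891), Itgam (0.00498) and Tyrobp (0.0113) were called, where 2.27% of 17179 genes had a called positive slope. On C1qa these were Csf1r (0.0179) and Tyrobp (0.0499), with 1.21% of genes. On Itgam, Csf1r was called (0.0268), 1 of 6 genes with a positive slope or 0.0349%. On Aif1, C1qa was called (0.0342), with 1.66%. In either direction 1.91% of genes were called on C1qa, 3.78% on Aif1 and 0.0466% on Itgam. Without the library of lowest total (rat 10 of rat batch 2) these shares were 0.739%, 1.2% and 0.122%, so a single library moved each by over 1.5 times. On Tyrobp, Csf1r (0.000789) and C1qa (0.00482) were called, but so were 13.7% of genes. Per unit of Csf1r on the log2 scale, the fitted slope was 1.53 ± 0.31 (SE) for Itgam, 0.99 ± 0.24 for Tyrobp and 0.84 ± 0.18 for C1qa. Deviations of Csf1r ran only from -0.29 to 0.31, so no rat shows a rise of a full unit.

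All 9 calls were lost with limma in the 37 males alone, where 12 of the 20 ordered pairs had an unadjusted p under 0.05. Both directions of a pair enter that count. The share of all genes under that unadjusted threshold is not given here. Slopes on Csf1r in males were 0.95 (C1qa), 1.53 (Itgam) and 0.71 (Tyrobp), against 0.84, 1.53 and 0.99 in all rats. Those on C1qa were 0.32 (Csf1r) and 0.28 (Tyrobp), against 0.27 and 0.48. On Tyrobp they were 0.19 (Csf1r) and 0.22 (C1qa), against 0.21 and 0.31. Csf1r on Itgam was 0.18 against 0.17, and C1qa on Aif1 0.33 in both. Over 12 alternatives, Csf1r on Tyrobp lost its call in 1 (limma adjusted p = 0.163) and C1qa on Tyrobp in 2, the other being the first expression component as covariate (0.0553). Itgam on Csf1r lost it in 3, in either sex alone and without rat batch 4 (0.226). C1qa on Csf1r lost it in 5, without rat batch 3 (0.0609) or 4 (0.0834), with the first component (0.0834) and in either sex, and the same 5 settings ended the call of Tyrobp on Csf1r (adjusted p from 0.0873 to 0.589). Csf1r on C1qa lost it in 5, without rat batch 2 (0.212) or 3 (0.14), with the first component (0.121) and in either sex. Csf1r on Itgam lost it in 6, without rat batch 3 (0.096), 4 (0.138) or 6 (0.3), with column run (0.0582) and in either sex. C1qa on Aif1 lost it in 7, among them without the single library of lowest total (0.125), with column run (0.0624), with the first component (0.0542) and without rat batch 2 (0.207) or 3 (0.243). Tyrobp on C1qa, at the threshold, lost it in 11 (adjusted p from 0.0558 to 0.566, and 0.05 with the pseudocount of 8, where it stayed just under the threshold), with 0.0727 without the library of lowest total. All 9 slopes stayed above 0 in the 12 alternatives. Where the calls were lost, the slope on Csf1r was 0.66 (females) to 0.98 (without rat batch 4) for C1qa. For Itgam it was 1.46 (without rat batch 4) to 1.76 (females).

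The r values were also ranked among genes, in a set smaller than the 12988 genes used for spread. Of the 12929 genes ranked, all with a mean log2 of at least 5, Csf1r had the 4th highest r with Itgam. In turn, Itgam ranked 15, C1qa 26 and Tyrobp 53 by their r with Csf1r, whose median over genes was 0.00. Csf1r ranked 946 by r with Tyrobp and 1150 by r with Aif1, and Aif1 ranked 1465 by r with Csf1r. The deviations of Tyrobp followed the first expression component of all genes, which held 11.2% of the variance, with an r of -0.47 and a rho of -0.59 (permutation p = 7e-05 and 1e-05, sign of the component arbitrary), and -0.54 without the 2 farthest rats. For Csf1r this r was -0.27 and rho -0.38 (permutation p = 0.0155 and 0.00094), for C1qa -0.25 and -0.25 (permutation p = 0.0412 and 0.0339), and for Aif1 and Itgam the permutation p was 0.0995 and 0.678. With this component as a covariate the r of Csf1r with Tyrobp was 0.38, with C1qa 0.44 and with Itgam 0.51. Tyrobp also rose with the number of genes at 0 per library (r = 0.27, rho = 0.24, permutation p = 0.0167 and 0.0429, and 0.35 without the 2 farthest). None of the 5 genes had a permutation p under 0.05 with the log2 total count, where r lay between -0.20 and 0.05. In all, 15 such relations with library measures were computed.

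The genes most like the members as a group were found by their mean r to all 5. ENSRNOG00000008465 was highest with 0.49, with an r of 0.56 with Csf1r, 0.43 with C1qa, 0.35 with Aif1, 0.46 with Itgam and 0.66 with Tyrobp. ENSRNOG00000028566 followed with 0.46, led by its r of 0.64 with Csf1r. At the other end, ENSRNOG00000024907 had -0.41, led by -0.79 with Tyrobp, and so did ENSRNOG00000061625, with -0.61 for Tyrobp. The median over 12925 genes was 0.00 and the 99th percentile 0.34. For comparison, the mean r of a member to the other 4 was 0.42 for Csf1r, 0.33 for C1qa, 0.31 for Tyrobp, 0.24 for Itgam and 0.22 for Aif1. As many as 1226 genes outside the group had a higher mean r than Aif1, and 9 had a higher one than Csf1r. These identifiers are given without symbols.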

How the data were processed

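RNA-Seq libraries from the nucleus accumbens core were used as 1 table of 75 libraries. Of the 86 samples in the labels, 11 were labelled as removed, and no table column was left unmapped. The deposited values are log2(scaled count + 1). To make them, the authors trimmed reads with cutadapt, used RSEM and the Ensembl rat transcriptome to estimate read counts of genes, adjusted these by their upper quartile with DESeq2 and removed genes of very low count. Per the submitters' processing notes the build was Rnor_6.0. Because the scaled counts had been rounded, a scaling factor could be found for each library (0.708 to 2.183, searched between 0.55 and 2.5), and recovered counts were used for depth, counting error, the log2 total and voom. Total counts per library, from 8455342 to 26145738, set the precision, and counting SDs cover counting error only, since reads carried no molecular identifiers.

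The deposited log2 values were tested with limma 3.58.1 (lmFit, eBayes with trend) in R 4.3.3, with Benjamini-Hochberg adjustment over all genes and a threshold of 0.05, and every adjusted p is of that kind. Rat batch 5, with 1 library, was left out, leaving 74 libraries (37 females, 37 males). Pairs of rat batches were read from the fit of all 4 batches. The fits were tested on simulated data, of which no outcome is reported here. Correlations used 100000 two-sided permutations within rat batch and sex, for 10 pairs. Each library is 1 rat, so p-values rest on the spread between rats. That spread cannot be separated from differences between libraries in dissection and preparation. Tables and correlations were made in Python 3.11.15 (scipy 1.17.1, with numpy 2.4.6 and pandas 2.3.3).

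Alternatives were a mean log2 filter of 3, pseudocounts of 8 and 0.1, an inverse normal transformation, quantile normalization, voom, eBayes without trend or robust, other covariates, and leaving out each rat batch, 1 sex or the library of lowest total. Comparing column runs within rat batch 3, removing them from its correlations and comparing the sexes within batches were added after the data were seen. The members and lists were chosen with earlier results of these data known. Genes to name were the members and those with the highest mean r to them, limited to 2 at each end, and those with the lowest mean r were added after their values were seen. Lists of further microglia genes, partners and markers of other cells were not analysed here, nor was the top gene for each single member named, since the reference tables used paired no identifier with a symbol.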

Additional observations from a re-analysis of the deposited data

Results flagged for a closer look

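Within each sex of each rat batch with 4 to 10 libraries (4 groups), the highest and lowest value of each member was compared with its neighbour, in 20 checks of gene and group. In these checks 2 values stood apart. Chance alone can give such values, and its rate over 20 checks of genes that vary together was not tested.

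Csf1r in rat 13 of rat batch 6 was 10.16, against 10.45 for the next of the 8 males and 10.62 for the highest. The gap was 0.623 of the range. The same male had Itgam at 6.78, the fourth lowest value of all libraries, and a recovered total of 18595434, so its depth was near the mean of the batch.

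C1qa in rat 6 of rat batch 6 was 10.09, against 9.87 for the next of the 8 females and 9.67 for the lowest, and the gap was 0.528 of the range. This rat also had the highest Csf1r of those females, 10.60, and was above its fitted mean in all 5 genes.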

How the results depend on the processing

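The count of members that differed between rat batches, 4, fell to 0 with 20 expression components or with column run as covariate and to 2 (Csf1r and C1qa) without rat batch 3, and was 3 or 4 under the other alternatives. Over all genes the same settings gave 12, 169 and 5723 in place of 9192. The calls of Tyrobp and Aif1 that other settings lost are given beside the result. Between pairs of batches, column run turned the differences of rat batch 3 minus 2 to -0.0023 (Csf1r), -0.0276 (C1qa), -0.15 (Aif1) and -0.0644 (Tyrobp) and that of Itgam in rat batch 4 minus 3 to -0.26, while quantile normalization gave -0.000809 for the latter. None of these 6 was called in any of the fits.

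No member was called between the sexes, or for the interaction, under any alternative run. Male minus female differences of Csf1r turned to -0.0016 (inverse normal transformation, on its own scale), -0.0057 (voom), -0.0058 (no other covariate), -0.0042 (log2 total), -0.0177 (without rat batch 3) and -0.0285 (without rat batch 6). With 20 components they were 0.0809 for C1qa, 0.31 for Itgam and 0.24 for Tyrobp, while that of Aif1 went from -0.03 to -0.26, and Tyrobp was 0.0136 without rat batch 4.

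Pairs of members with a permutation p under 0.05 numbered 7 and stayed within 1.5 times of that. Csf1r with C1qa, with Itgam and with Tyrobp kept their sign and a p under 0.05 in all 12 alternatives, with r between 0.36 and 0.58, 0.48 and 0.53, and 0.37 and 0.49. C1qa with Itgam turned to -0.021 without rat batch 6 and -0.21 in females, against 0.35 in males (a difference that was not tested), and Aif1 with Tyrobp to -0.0704 without rat batch 3. The latter pair had an r of 0.31 without rat batch 4. That value and the 0.35 of C1qa with Itgam in males had a permutation p under 0.05. Ordered pairs called among all genes numbered 9, and 3 with the first expression component, 3 without rat batch 3, 4 without rat batch 4, 2 in females and 0 in males (12 at an unadjusted limma p under 0.05), where fewer rats were tested. Over all genes, the number with a called slope was 775 on Csf1r (0 in females to 921 with quantile normalization), 328 on C1qa (2 in males and without rat batch 2, to 464 without rat batch 6, and 0.739% of genes in place of 1.91% without the library of lowest total), 650 on Aif1 (0 in females to 851 with the first component, and 207 without that library), 8 on Itgam (0 in either sex alone and without rat batch 4 or 6, to 47 with the first component, and 21 without that library) and 4968 on Tyrobp (1291 in males to 4982 with a pseudocount of 8).

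No paired analysis was possible because each rat gave 1 library and its number carries no pairing. Depth limits Tyrobp and Aif1 most, where counting is up to 17.9% of the variance. The meaning of rat batch and column run is not given in the sources used here, and no other microglial gene or cell type marker was set beside these 5.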
